A study of Mus musculus with 12 samples.

Results

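Genes of the calcium-binding S100 and annexin families, the galectins and a pair of structural partners were followed in CD8 T cells of NOD mice, namely S100a4, S100a6, S100a10, S100a11, Lgals1, Lgals3, Anxa1, Anxa2, Vim and Ahnak. They were picked by name, as 10 of the 32285 genes counted, with their levels by sample group and by clone size already known. Levels, detection and differences by group and by clone size are therefore given as a description, without a p-value for a single member. Tests are printed for readouts that the choice did not use.

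Cells of 3 groups were compared, each as 2 libraries (Round 1 and Round 2). All came from NOD/ShiLtJ mice, females aged 10 to 15 weeks, with no genetic change or drug in any group. Islet IGRP- cells were CD45.1+ CD8+ cells of pancreatic islets that did not bind the NRP-V7 tetramer, which carries a mimotope of an islet glucose-6-phosphatase-related peptide (IGRP). Islet IGRP+ cells bound it, and spleen IGRP+ cells were tetramer-binding cells from spleen, enriched for CD8 T cells by negative selection and sorted as CD44+. CD4+, B220+ and CD11b+ cells were gated out in all 3 groups. Each round pooled 10 mice, so the 2 rounds are the replicates, cells are not, and a value cannot be tied to 1 mouse. The islet and spleen libraries of a round came from the same pool.

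Of 26818 listed cells, 24117 passed the limits of under 5% mitochondrial UMIs (unique molecular identifiers, each standing for 1 captured transcript) and 200 to 3500 genes in islets or 200 to 2000 in spleen. The 6 libraries held 5880696 to 40469961 UMIs in these cells. The median cell had 3793 to 4216.5 UMIs in the islet libraries and 2590 to 2764.5 in the spleen libraries. Shares of cells positive for a member in the 3 groups are therefore given after thinning each cell to 1000 UMIs. Shares for marker genes are without thinning unless stated. Genes of the T cell receptor complex and CD8 were found in 99.3% to 99.9% of cells of each library. Any 2 libraries shared 5 to 77 cell barcodes. Levels are counts per 1e6 UMIs of the library or cell class (CPM). Since this chemistry counts 5′ ends without regard to gene length, levels are compared between samples for 1 gene and not between genes.

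S100 proteins are small calcium-binding proteins that work as dimers, and several of them bind annexins at the inner face of the plasma membrane. Annexins bind acidic phospholipids when calcium rises, while galectins are lectins that bind β-galactosides on surface glycoproteins. In CD8 T cells, transcripts of these families are commonly low in naive cells and high in effector and memory cells, as are those of vimentin, the intermediate filament of lymphocytes, and of the giant scaffold protein AHNAK.

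The members lie on 6 chromosomes of the mouse genome (GRCm38). S100a4 (chr3:90603771-90606045) and S100a6 (chr3:90612882-90624181) are neighbours on the plus strand, and S100a11 (chr3:93520488-93526287) lies next to S100a10 (chr3:93555080-93564643). Lgals1 is at chr15:78926725-78930465, Lgals3 at chr14:47367751-47386160, Anxa2 at chr9:69453620-69491795 and Vim at chr2:13573927-13582826, all on the plus strand. Ahnak (chr19:8989284-9076914, plus strand) and Anxa1 (chr19:20373428-20390944, minus strand) share a chromosome. Both annexins overlap another gene in the files, Anxa1 with 1500015L24Rik and Anxa2 with Gm16144, and since no setting for strand is given in the sources used here, UMIs in the overlaps may be uncertain.

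Because 9 of the 10 genes were higher in large clones than in single cells in both tissues, the 250 bases before the transcription start are shown for 6 of them: the 4 with the largest difference in spleen, and Vim and Ahnak, which set themselves apart below. RefSeq promoters (GRCm38.p6) were matched for 8 members. Capitals mark 4 motifs searched on both strands, which were the TATA box as TATAAA, the GC box as GGGCGG, the CACCC element as its own letters and the AP-1 site as TGANTCA. The sequences run from chr3:90603520-90603769 (S100a4), chr3:90612644-90612893 (S100a6), chr14:47373610-47373859 (Lgals3), chr9:69453433-69453682 (Anxa2), chr2:13574061-13574310 (Vim) and chr19:8989034-8989283 (Ahnak), all on the plus strand and written 5′ to 3′.
S100a4: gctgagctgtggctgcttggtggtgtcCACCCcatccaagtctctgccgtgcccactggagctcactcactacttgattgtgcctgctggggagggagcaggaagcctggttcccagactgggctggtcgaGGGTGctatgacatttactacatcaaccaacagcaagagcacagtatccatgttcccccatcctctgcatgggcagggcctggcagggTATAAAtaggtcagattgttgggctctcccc
S100a6: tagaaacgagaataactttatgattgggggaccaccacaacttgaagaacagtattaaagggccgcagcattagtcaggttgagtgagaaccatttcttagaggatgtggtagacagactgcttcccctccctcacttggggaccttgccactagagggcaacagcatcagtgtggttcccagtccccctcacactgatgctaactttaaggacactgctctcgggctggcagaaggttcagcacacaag
Lgals3: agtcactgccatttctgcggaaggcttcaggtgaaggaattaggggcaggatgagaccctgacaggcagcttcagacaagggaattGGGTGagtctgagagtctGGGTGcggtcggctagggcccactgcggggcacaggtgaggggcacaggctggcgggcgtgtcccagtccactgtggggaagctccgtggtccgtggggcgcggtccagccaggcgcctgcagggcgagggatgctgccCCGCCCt
Anxa2: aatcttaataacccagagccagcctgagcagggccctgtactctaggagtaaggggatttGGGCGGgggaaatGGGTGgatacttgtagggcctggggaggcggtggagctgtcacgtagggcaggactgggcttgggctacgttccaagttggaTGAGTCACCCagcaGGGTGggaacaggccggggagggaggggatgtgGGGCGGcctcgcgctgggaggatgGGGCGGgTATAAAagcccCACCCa
Vim: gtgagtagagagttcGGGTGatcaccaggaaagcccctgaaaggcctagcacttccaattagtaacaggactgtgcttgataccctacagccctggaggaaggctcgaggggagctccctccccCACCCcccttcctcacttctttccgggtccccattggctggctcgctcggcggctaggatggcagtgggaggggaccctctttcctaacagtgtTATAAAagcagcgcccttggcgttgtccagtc
Ahnak: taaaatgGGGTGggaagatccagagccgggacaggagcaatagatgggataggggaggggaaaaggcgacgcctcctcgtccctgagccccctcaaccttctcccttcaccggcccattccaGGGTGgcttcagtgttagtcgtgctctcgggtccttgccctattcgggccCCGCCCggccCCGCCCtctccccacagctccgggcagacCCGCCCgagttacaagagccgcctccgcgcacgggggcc

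A TATAAA was found in 4 of the 8 windows (S100a4, Vim, Anxa1 and Anxa2), against 12.4% of all 32851 mouse promoters cut to the same length. It started 31 bases before the start in S100a4, 32 bases before it in Vim and Anxa1 and 17 bases before it in Anxa2. For S100a4 the bases just after the window were not found in an annotated transcript. The Lgals3 and Vim windows lie inside the gene spans given above. GGGCGG was found in 4 of 8 (32.7% of all promoters), CACCC in 5 of 8 (52.0%) and TGANTCA in 2 of 8, Anxa2 and S100a11 (6.75% of all promoters). In Anxa2 the TGANTCA runs into a CACCC by its last 2 letters. The S100a6 window held none of the 4. These are matches of letters in a window and not binding sites.

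Among the S100 genes, S100a4, an S100 protein linked to cell motility, had 201 and 217 CPM in the islet IGRP- libraries (Round 1, then Round 2, here and below). It had 332 and 372 CPM in islet IGRP+ cells and 210 and 246 CPM in spleen IGRP+ cells. The islet IGRP+ libraries were both above the others, while islet IGRP- and spleen overlapped. On the log2 scale of the fit, islet IGRP+ cells were 0.75 ± 0.15 (SE, 2 libraries a group) above islet IGRP- cells and 0.73 ± 0.15 above spleen. At 1000 UMIs, an S100a4 UMI was seen in 11.02% and 11.2% of islet IGRP- cells, 18.3% and 20.1% of islet IGRP+ cells and 15.8% and 15.4% of spleen cells.

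S100a6 had 913 and 671 CPM in islet IGRP- cells, 1527 and 1425 in islet IGRP+ cells and 1112 and 1192 in spleen IGRP+ cells. The groups did not overlap, with a log2 difference of 0.89 ± 0.29 within islets and 0.46 ± 0.28 between the tetramer-positive groups. Its share of positive cells did not follow the level: 53.0% and 51.3% of islet IGRP+ cells and 52.2% and 54.9% of spleen cells had a UMI at 1000 UMIs. Cells with 3 or more UMIs were 23.1% and 19.5% of islet IGRP+ cells and 16.4% and 16.6% of spleen cells, so the 2 tissues differed in the upper part of the range.

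S100a10, the partner of annexin A2 in a membrane-bound tetramer, was highest in spleen. It had 709 and 814 CPM in islet IGRP- cells, 1170 and 1344 in islet IGRP+ cells and 1692 and 1685 in spleen cells. At 1000 UMIs it was seen in 39.2% and 43.7%, 59.6% and 61.8%, and 74.7% and 75.5% of cells of these groups. Islet IGRP+ cells were 0.72 ± 0.22 above islet IGRP- cells and 0.34 ± 0.22 below spleen cells in log2. S100a11, which can bind annexin A1, had 153 and 163, 264 and 305, and 299 and 311 CPM in the same order. Its libraries from islet IGRP+ and spleen cells overlapped (log2 difference -0.01 ± 0.16), and both were above islet IGRP- cells, by 0.84 ± 0.16 for islet IGRP+.

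Of the galectins, Lgals1 showed the largest difference of all 10 members between the tetramer-positive and tetramer-negative islet cells. Galectin-1 is secreted by activated T cells and crosslinks surface glycoproteins. Its level was 909 and 922 CPM in islet IGRP- cells, 2295 and 2234 CPM in islet IGRP+ cells and 1364 and 1545 CPM in spleen IGRP+ cells. The 3 groups were apart, at a log2 difference of 1.31 ± 0.23 within islets and 0.74 ± 0.23 against spleen. A UMI was seen at 1000 UMIs in 33.7% and 32.3% of islet IGRP- cells, 67.6% and 66.8% of islet IGRP+ cells and 58.9% and 64.3% of spleen cells. Lgals3, the chimera-type galectin that forms lattices on glycoproteins, was at 104 and 119, 168 and 225, and 124 and 141 CPM. Both islet IGRP+ libraries were above the rest, by 0.80 ± 0.15 over islet IGRP- cells and 0.65 ± 0.15 over spleen. It was seen in 7.09% and 7.78%, 11.2% and 15.2%, and 11.2% and 12.2% of cells.

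Of the annexins, Anxa1 was close to undetected. Annexin A1 is a glucocorticoid-induced protein that is abundant in myeloid cells. Its UMIs over whole libraries were 68 and 100 in islet IGRP-, 4 and 13 in islet IGRP+ and 29 and 31 in spleen cells, or 0.680 to 4.49 CPM. Its differences rest on these few UMIs, and nothing is read from them where they are counted or printed below. Anxa2, which binds S100A10, was at 199 and 268 CPM in islet IGRP- cells, 392 and 591 in islet IGRP+ cells and 281 and 354 in spleen cells. The groups did not overlap, with islet IGRP+ cells 1.06 ± 0.21 above islet IGRP- and 0.72 ± 0.20 above spleen in log2. It was seen in 13.3% and 16.7%, 29.6% and 37.1%, and 24.2% and 28.5% of cells at 1000 UMIs.

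Vim and Ahnak went separate ways. Vim had 698 and 714 CPM in islet IGRP- cells, 935 and 1116 in islet IGRP+ cells and 626 and 654 in spleen cells. In CPM spleen was its lowest group, with islet IGRP+ cells 0.77 ± 0.20 higher in log2 and 0.53 ± 0.20 higher than islet IGRP- cells. By cells with a Vim UMI at 1000 UMIs the order differed, with 31.3% and 31.8% in islet IGRP-, 39.6% and 48.4% in islet IGRP+ and 40.3% and 39.4% in spleen. Ahnak had 222 and 301 CPM in islet IGRP- cells, 149 and 283 in islet IGRP+ cells and 511 and 742 in spleen cells. The islet groups overlapped (log2 difference -0.30 ± 0.28), and both spleen libraries were above all 4 islet libraries, with islet IGRP+ cells 1.46 ± 0.28 lower than spleen. Round 2 had more Ahnak than Round 1 in each group, by 0.44, 0.93 and 0.54 in log2, and more Anxa2, by 0.43, 0.59 and 0.33. The rounds were sequenced with different read lengths, and mouse pool and sequencing cannot be told apart.

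**Figure D1:**
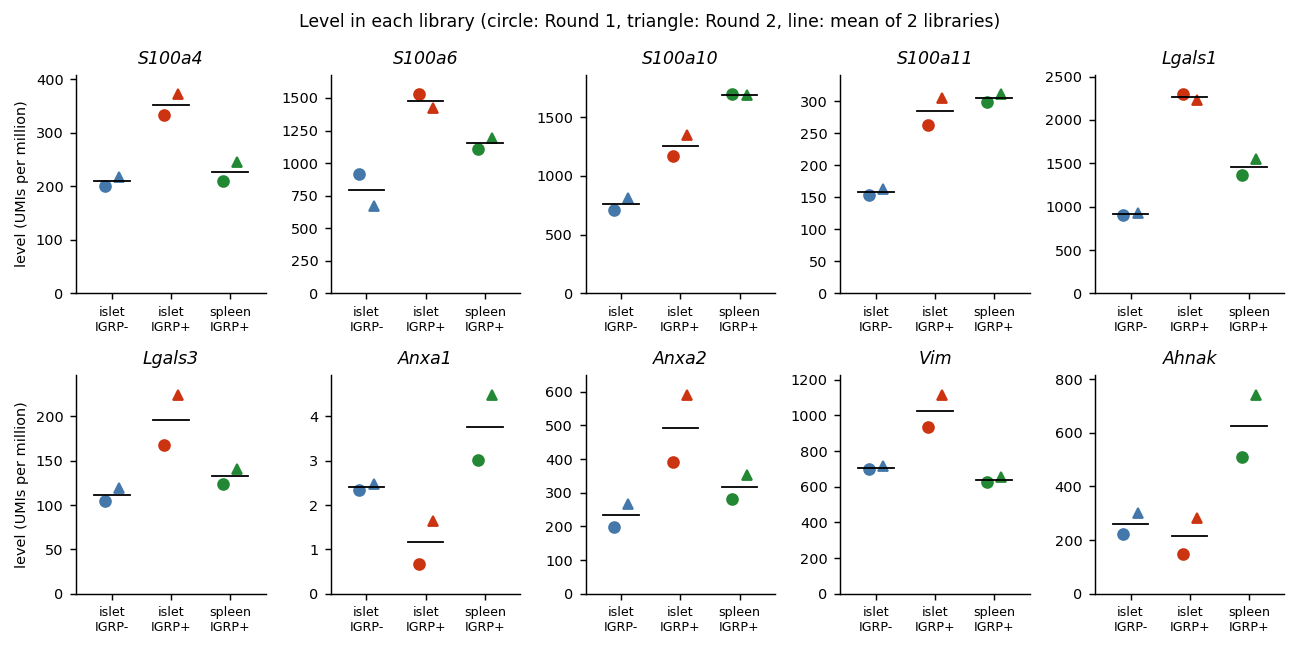
Level of each member in CPM (linear axis from 0), by group, with a point for each of the 2 libraries and a line at their mean. Islet IGRP+ libraries are highest for S100a4, S100a6, Lgals1, Lgals3, Anxa2 and Vim, and spleen libraries for S100a10 and Ahnak (511 and 742 CPM).

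All 10 members passed the filter on low counts. Over 11277 genes, 0 of the 10 passed an adjusted p of 0.05 between islet IGRP+ and islet IGRP- cells in edgeR's quasi-likelihood test, where 1.19% of all genes did (0.151% on the higher side and 1.04% on the lower) and 1982 had an unadjusted p under 0.05. With the round as a block, 8 of 10 passed, where 30.5% of genes did. DESeq2 also passed 8, where it passed 574 genes in all. Against spleen, which shares the islet IGRP+ libraries with the first comparison, 6 of 10 passed, where 26.6% of genes did: S100a4, Lgals3, Anxa2 and Vim on the higher side and Anxa1 and Ahnak on the lower. With the block 9 passed, where 55.1% of genes did. Leaving out any 1 of the 6 libraries left 0 to 2 of the 6. Since the choice of members used these contrasts, nothing is read from the counts. The median log2 difference of the members was 0.77 within islets and 0.56 against spleen, where all genes had medians of -0.01 and -0.03.

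Transcripts of other cells were measured beside these levels. In 60 islet barcodes with at least 10% of UMIs from exocrine genes and no CD3 or CD8 UMI (median 721.5 UMIs), a UMI of each member was seen in 0% to 3.33% of barcodes. A count of 0 of 60 allows a share of up to 5.00% with a UMI at this depth and sets no limit on cells that express the gene. The 10 myeloid markers summed to 29.6 and 29.2 CPM in islet IGRP-, 19.6 and 34.2 in islet IGRP+ and 15.4 and 16.4 in spleen libraries, with Adgre1 at 0 in 5 of the 6 libraries. The 5 B cell markers summed to 46.7 and 41.6, 15.3 and 16.8, and 75.5 and 62.2 CPM in the same order. The 12 exocrine markers summed to 144 and 486, 63.3 and 179, and 5.62 and 6.51 CPM, with 10 of the 12 at 0 in spleen, and the 4 endothelial markers to 21.0 and 21.3, 3.06 and 5.51, and 15.5 and 14.04 CPM. Without the cells holding 2 or more UMIs of other cell types, the log2 differences within islets were 1.35 for Lgals1 and 1.09 for Anxa2. As a description, 4 members passed against spleen in these cells, where 26.2% of genes did. Anxa1 and Anxa2 no longer did, at log2 differences of -1.57 and 0.63 from -1.56 and 0.72 in all cells. Ccr7, Il7r, Tcf7 and Lef1, 4 markers of naive and memory T cells, moved with the groups and summed to 1046 and 1523 CPM in islet IGRP-, 262 and 456 in islet IGRP+ and 940.4 and 1067 in spleen. Their part in the differences was not tested between groups. Mki67 and Top2a summed to 95.7 and 69.5, 161 and 109, and 20.9 and 35.0 CPM.

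Within single cells, the 10 genes together made up 0.411% and 0.419% of UMIs in islet IGRP- cells, 0.723% and 0.790% in islet IGRP+ cells and 0.622% and 0.687% in spleen cells. At 1000 UMIs, the median cell showed 1 and 2 of the 10 in islet IGRP- cells, 3 and 3 in islet IGRP+ cells and 3 and 4 in spleen cells. Cells with at most 2 members were 66.1% and 64.6% of islet IGRP- cells, 39.7% and 33.8% of islet IGRP+ cells and 33.5% and 28.6% of spleen cells. Cells with 6 or more were 5.95% and 6.80%, 10.7% and 17.7%, and 14.7% and 16.2%.

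Clone size was taken from the 13667 cells with exactly 1 productive α and 1 productive β chain, as the number of cells of a library with the same pair of CDR3 nucleotide sequences. Clones of 10 or more cells held 29.6% and 26.6% of these cells in islet IGRP-, 86.0% and 91.1% in islet IGRP+ and 80.9% and 83.7% in spleen. Singlets held 46.4% and 54.0%, 1.78% and 1.18%, and 15.2% and 9.71%. Islet IGRP+ singlets (12 and 14 cells) were too few to use. Cells of 1 clone share a receptor, and the libraries remain the replicates.

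S100a4 was low in singlets of all 4 libraries that had enough of them. In islet IGRP- cells it had 71.1 and 61.3 CPM in singlets, 324 and 355 in clones of 2 to 9 cells and 358 and 407 in clones of 10 or more. In spleen it had 32.1 and 30.3 CPM in singlets, 494 and 339 in clones of 2 to 9 and 288 and 282 in large clones. Large clones were above singlets by 2.38 ± 0.10 in log2 in islet IGRP- cells and by 2.97 ± 0.18 in spleen. The step lay between singlets and clones of 2 to 9 cells. S100a6 followed the same course, from 386 and 220 CPM in islet IGRP- singlets to 1703 and 1272 CPM in large clones, and from 107 and 179 CPM to 1478 and 1422 CPM in spleen.

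S100a10 went from 473 and 506 CPM in islet IGRP- singlets to 1000 and 1253 CPM in large clones and from 529 and 775 CPM to 2035 and 1851 CPM in spleen. S100a11 went from 92.6 and 85.9 CPM to 226 and 273 CPM in islet IGRP- cells, and from 103 and 112 CPM to 359 and 344 CPM in spleen. Their log2 differences between large clones and singlets were 1.03 ± 0.12 and 1.32 ± 0.09 in islet IGRP- cells and 1.38 ± 0.14 and 1.49 ± 0.13 in spleen.

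Lgals1 went from 389 and 342 CPM in islet IGRP- singlets to 1589 and 1847 CPM in large clones, and from 231 and 385 CPM to 1757 and 1747 CPM in spleen. Its log2 differences were 2.07 ± 0.13 and 2.33 ± 0.15. For Lgals3 singlets had 48.7 and 37.3 CPM in islet IGRP- and 14.1 and 13.6 CPM in spleen, against 166 and 205 CPM and 146 and 158 CPM in large clones. The spleen singlets rest on 14 and 9 UMIs of Lgals3, and its differences were 1.98 ± 0.13 and 3.23 ± 0.29. Anxa2 had 112 and 119 CPM in islet IGRP- singlets and 328 and 504 CPM in large clones, where spleen had 27.1 and 47.0 CPM and 369 and 420 CPM. Its log2 difference was 1.67 ± 0.10 in islet IGRP- cells and 3.25 ± 0.18 in spleen. Anxa1 stayed at 0 to 11.2 CPM in every class, with 30 or fewer UMIs.

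Vim went from 443 and 363 CPM in islet IGRP- singlets to 1093 and 1210 CPM in large clones, a log2 difference of 1.35 ± 0.10. In spleen it went from 404 and 453 CPM to 723 and 702 CPM, a difference of 0.52 ± 0.11. Ahnak showed the opposite balance, with 167 and 206 CPM in islet IGRP- singlets and 243 and 357 CPM in large clones, and 109 and 214 CPM and 581 and 807 CPM in spleen. Its differences were 0.51 ± 0.09 and 1.93 ± 0.12.

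**Figure D2:**
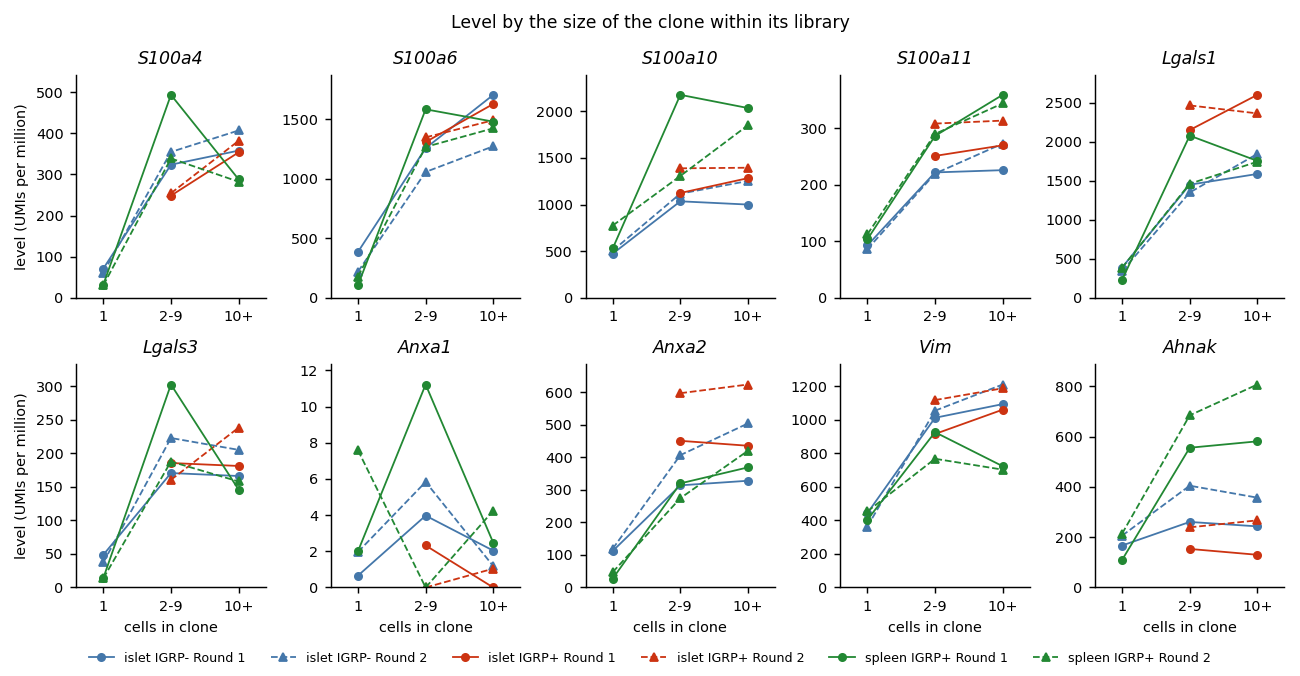
Level of each member in CPM (linear axis from 0) in cells of clones of 1, 2 to 9 and 10 or more cells, a line for each library, with classes under 20 cells left out. For 9 of the 10 genes singlets are the lowest class of each islet IGRP- and spleen library, and Anxa1 stays at a few UMIs.

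In these contrasts 9 of 10 members passed an adjusted p of 0.05 on the higher side in islet IGRP- cells, where 21.1% of 10940 genes did (40.1% in either direction), and 9 of 10 in spleen, where 8.34% did (7.21% on the lower side). As the members were chosen with these levels known, the counts are a description. Depth differed between the classes in opposite directions in the 2 tissues, and the median cell had 3731 to 3811 UMIs in islet IGRP- singlets and 4492.5 to 4694 in large clones, but 3856.5 to 4138 in spleen singlets and 2613 to 2837 in large clones. In islet IGRP+ cells, large clones were compared with clones of 2 to 9 cells. There 1 of 10 members, S100a4, passed, where 0.064% of genes did on the higher side, with 248 and 254 CPM in the smaller clones and 354 and 382 CPM in the large ones (log2 difference 0.61 ± 0.13). The other 8 detected members differed by 0.06 to 0.35 in log2.

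Large clones varied among themselves. In the islet IGRP- library of Round 1, S100a10 and Lgals1 were above the singlets in all 30 large clones, S100a6 in 28 and S100a4 in 25. In Round 2, Anxa2 was above the singlets in 63 of 63 clones, S100a6, S100a10, S100a11 and Lgals1 in 62, and S100a4 in 56. S100a4 ranged from 46.3 to 1396 CPM over the 30 clones of Round 1, with a median of 285, while S100a10 ranged from 509 to 1900 CPM with a median of 940. In spleen, each of the 9 detected members was above the singlets in 21 of 21 large clones of Round 1 and, other than Vim (23), in 25 of 25 of Round 2.

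Spleen singlets carried other receptors more often than the large clones did. Singlets with the TRAV16N gene segment, found in most spleen cells of larger clones, were 49 and 37 cells and had 231 and 462 CPM of Lgals1. Those without it were 203 and 125 cells and had 231 and 363 CPM. Cells of clones of 2 or more with TRAV16N had 1772 and 1748 CPM. For Ahnak the 3 classes had 86.1 and 241 CPM, 115 and 206 CPM, and 579 and 807 CPM. Singlets with TRAV16N lay between the other classes for S100a4, at 64.6 and 46.9 CPM against 24.7 and 25.5 in singlets without it and 298 and 293 in clones of 2 or more. So they did for Anxa2, at 59.2 and 67.0 CPM against 19.7 and 41.2 and 366 and 415, and for Lgals3, at 53.8 and 26.8 CPM against 4.94 and 9.80 and 153 and 164. These singlets hold 4 to 12 UMIs a library of each of the 3 genes. S100a6 lay between as well, at 129 and 275 CPM against 102 and 151 and 1480 and 1431. So did S100a10, at 678 and 784 CPM against 495 and 772 and 2044 and 1834. The differences between singlets were not tested. Clones of 2 or more without TRAV16N were 11 and 30 cells. They had 1794 and 658 CPM of Lgals1, 610 and 368 of Ahnak and 287 and 0 of S100a4. In Round 1 these were near the clones with TRAV16N and in Round 2 below them. Receptor and clone size were not tested apart.

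The difference between large clones and singlets was not of the same size in islet IGRP- and in spleen IGRP+ cells. It was larger in spleen by 1.43 ± 0.15 in log2 for Ahnak, 1.58 ± 0.23 for Anxa2, 1.01 ± 0.20 for S100a6 and 1.25 ± 0.37 for Lgals3, and larger in islets by 0.83 ± 0.15 for Vim. For S100a4, S100a10, S100a11 and Lgals1 it was larger in spleen by 0.17 to 0.59. As an interaction in the same fit, 5 of 10 members passed an adjusted p of 0.05, where 7.79% of genes did (3.18% larger in islets and 4.61% larger in spleen). The members were chosen with these levels known, so this count too is a description. The 2 groups differ in tetramer binding as well as tissue, and these cannot be told apart here.

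Most singlets carried a transcript of Ccr7, the homing receptor of naive and central memory T cells, or Lef1, a transcription factor of the same cells. Cells with neither made up 16.8% and 11.96% of singlets in islet IGRP- and 12.3% and 14.2% in spleen, against 71.9% and 71.6% and 64.9% and 64.0% of the cells of large clones. The comparison was therefore repeated, as a choice made after seeing the data, in cells without a UMI of either gene. In islet IGRP- cells 7 of 10 members then passed on the higher side in large clones. There 3.97% of 10058 genes passed on the higher side and 4.83% on the lower (8.8% in either direction). In spleen 9 of 10 passed on the higher side, where 1.31% of genes did and 0.487% on the lower side (1.8% in either direction). The members were chosen with levels by clone size known, so these counts are a description. In islet IGRP+ cells 0 of 10 passed between large clones and clones of 2 to 9 cells, where 0.109% of genes did (0.00994% higher and 0.0994% lower), 11 genes in all and 750 at an unadjusted p under 0.05 in edgeR. The islet differences came down to 1.01 ± 0.12 for S100a4, 0.89 ± 0.13 for S100a6, 1.08 ± 0.14 for Lgals1 and 0.54 ± 0.13 for Lgals3. In spleen these were 1.02 ± 0.26, 1.75 ± 0.20, 1.68 ± 0.20 and 1.45 ± 0.37.

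Ahnak was -0.17 ± 0.11 in the islet IGRP- cells so chosen and 1.41 ± 0.20 in spleen. The difference between large clones and singlets was larger in spleen by 1.58 ± 0.23 for Ahnak, 1.18 ± 0.30 for Anxa2, 0.91 ± 0.41 for Lgals3, 0.86 ± 0.25 for S100a6 and 0.84 ± 0.20 for S100a10, and for Vim it was 0.0090 ± 0.23. Of the 10 members 3 passed (Ahnak, Anxa2 and S100a10), where 1.27% of genes did (0.139% larger in islets and 1.13% larger in spleen), again as a description. The spleen singlets with neither transcript were 31 and 23 cells.

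**Figure D3:**
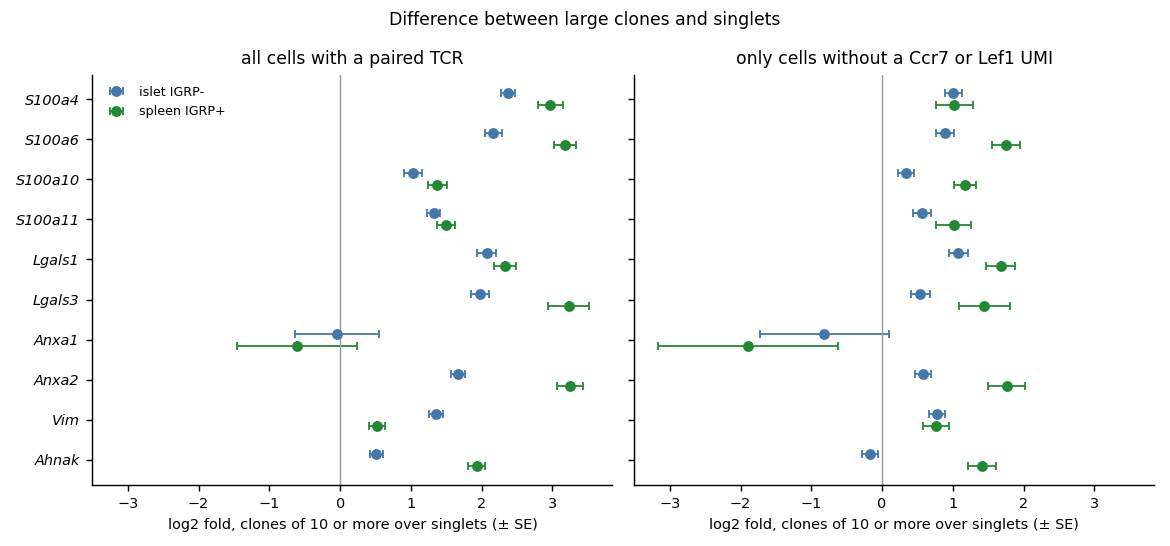
Log2 difference between clones of 10 or more cells and singlets for each member, with its SE, in islet IGRP- and spleen IGRP+ cells, for all paired cells (left) and for cells without a Ccr7 or Lef1 UMI (right). In all paired cells the spleen values of S100a6, Lgals3, Anxa2 and Ahnak are larger and that of Vim smaller, and on the right the 2 values of Vim lie together while Ahnak stays apart (-0.17 and 1.41).

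With large clones so unevenly spread over the groups, the groups were compared again within clones of 10 or more cells, also a choice made after seeing the data. The differences between islet IGRP+ and islet IGRP- cells were then 0.03 ± 0.19 for S100a4, 0.15 ± 0.30 for S100a6 and 0.05 ± 0.22 for Vim, from 0.75, 0.89 and 0.53 in all cells. In large clones S100a4 had 358 and 407 CPM in islet IGRP- cells and 354 and 382 CPM in islet IGRP+ cells, which overlap. Lgals1 had 1589 and 1847 against 2605 and 2366 CPM, a difference of 0.63 ± 0.26, and these did not overlap. Anxa2 had 0.43 ± 0.24, S100a10 0.34 ± 0.25, S100a11 0.31 ± 0.19, Lgals3 0.26 ± 0.18 and Ahnak -0.53 ± 0.32. By edgeR without a block for round, 0 of 10 passed, where 0.0193% of 10337 genes did (0.00967% in each direction) and 310 had an unadjusted p under 0.05. In all cells the block moved the count of members from 0 to 8. It was not fitted in large clones, here or against spleen, so these SEs and counts leave the shared pools out.

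In large clones of islet IGRP+ and spleen cells, S100a4 differed by 0.49 ± 0.19 and S100a6 by 0.24 ± 0.30, from 0.73 and 0.46 in all cells. Islet IGRP+ cells were lower in Ahnak by 1.69 ± 0.32 in log2 and higher in Vim by 0.78 ± 0.22, Lgals1 by 0.64 ± 0.26 and Lgals3 by 0.59 ± 0.18. Of the 10 members 1 (Ahnak) passed, in place of 6 in all cells, where 20.8% of genes did (9.45% on the lower side). Since the choice of members used this contrast, nothing is read from the count. The same clones could also be followed in both tissues, since 31 clones of Round 1 and 35 of Round 2 were recovered from islets and spleen of the same pool. Ahnak had 134 CPM in their islet cells and 576 CPM in their spleen cells in Round 1, and 263 and 811 CPM in Round 2. It was lower in the islet cells of 19 of 19 clones with at least 5 cells in each tissue in Round 1 and of 25 of 25 in Round 2.

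S100a10 was lower in the islet cells in 18 of 19 and 22 of 25 of these clones, at 1277 against 2043 CPM and 1396 against 1850 CPM. S100a11 was lower in 17 of 19 and 18 of 25. Lgals1 went the other way, at 2550 against 1767 CPM and 2367 against 1757 CPM, higher in the islet cells of 14 of 19 and 21 of 25 clones. Vim was higher in 12 of 19 and 19 of 25, and Anxa2 in 11 of 19 and 19 of 25. S100a4, at 343 against 301 CPM and 367 against 293 CPM, was higher in 9 of 19 and 15 of 25. S100a6, at 1600 against 1492 CPM and 1467 against 1439 CPM, was higher in 10 of 19 and 12 of 25, near an even split. Clones of a pool share mice and libraries, so these are counts without a test.

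**Figure D4:**
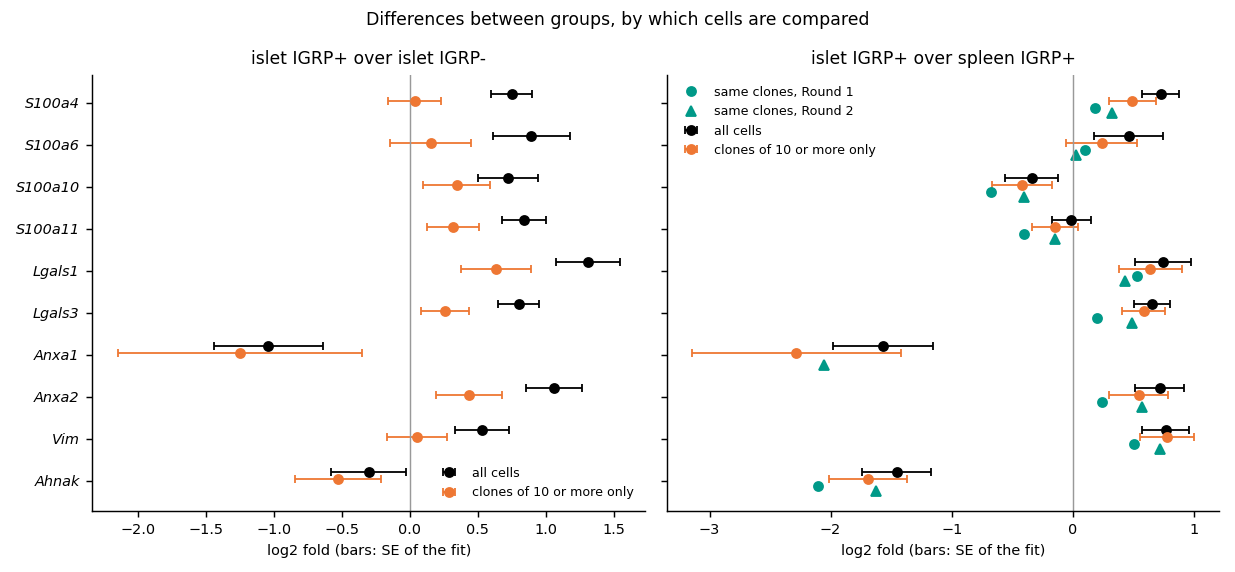
Log2 difference of each member between islet IGRP+ cells and islet IGRP- cells (left) or spleen IGRP+ cells (right), with the SE of the fit, in all cells and in clones of 10 or more cells, and on the right also in the clones found in both tissues of a round. Within islets S100a4, S100a6 and Vim move close to 0 in large clones, while against spleen Ahnak stays low in each set of cells.

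A readout that the choice of members did not use was a UMI of Mki67 or Top2a, transcripts of dividing cells, in the 4 islet libraries. The split does not hold clone size, or Ccr7 and Lef1, fixed. It may therefore overlap with the contrasts by clone size above, and their part in it was not tested. Such cells made up 12.7% and 11.5% of islet IGRP- cells and 24.1% and 19.2% of islet IGRP+ cells. Within libraries, with the library as a block, 8 of 10 members rose in them, where 18.1% of 10755 genes did (35.2% in either direction). Lgals1 had 1782 and 1901 CPM in dividing against 690 and 728 CPM in other islet IGRP- cells, and 3067 and 3000 against 1840 and 1947 CPM in islet IGRP+ cells. The dividing cells were higher in 4 of 4 libraries, with a log2 difference of 1.00 ± 0.11 (adjusted p = 2.03e-05).

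Vim rose by 0.80 ± 0.09 (adjusted p = 2.28e-05), Anxa2 by 0.68 ± 0.12, S100a4 by 0.67 ± 0.13, Lgals3 by 0.62 ± 0.11, S100a10 by 0.50 ± 0.09, S100a6 by 0.46 ± 0.11 and S100a11 by 0.42 ± 0.08, with adjusted p values from 0.000708 to 0.00627 for these 6. For S100a4 the gap was wider in islet IGRP- libraries, at 353 and 394 against 163 and 182 CPM, than in islet IGRP+ libraries, at 368 and 423 against 312 and 352 CPM. Whether these gaps differ was not tested. Ahnak did not pass (-0.08 ± 0.09, adjusted p = 0.540), with 240 and 346 CPM in dividing cells of islet IGRP- against 217 and 293, and 120 and 251 CPM against 165 and 295 in islet IGRP+. Without the library block 0 of 10 passed. Cells with a UMI of Mki67 or Top2a were also deeper. In islet IGRP- Round 1, 814 such cells held 5853823 UMIs and the other 5615 held 23299501. Thinned to 1000 UMIs, 4.51% and 3.52% of islet IGRP- and 7.81% and 7.14% of islet IGRP+ cells had such a UMI. In that setting 7 of 10 members passed, where 975 genes did in all.

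**Figure D5:**
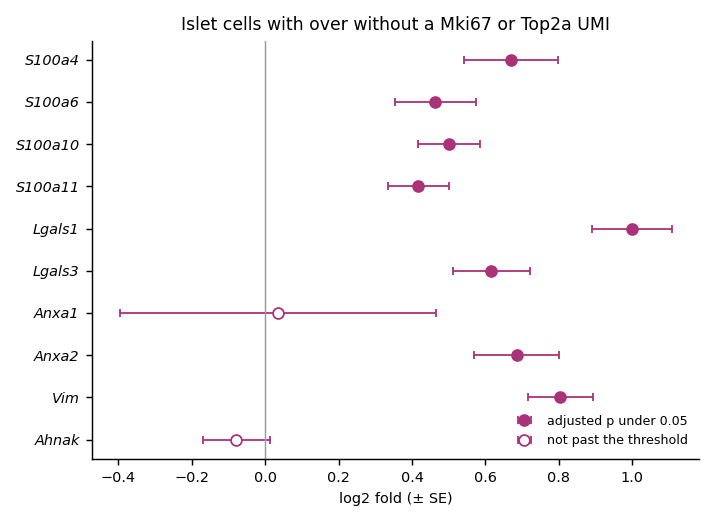
Log2 difference of each member between islet cells with and without a Mki67 or Top2a UMI (4 libraries), with its SE. Filled points passed an adjusted p of 0.05, which are all but Anxa1 and Ahnak, and Lgals1 is highest at 1.00.

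Of 33 other S100, galectin and annexin genes counted, 12 passed the filter in dividing islet cells, and 5 of them rose and 0 fell, where 18.1% and 17.0% of all genes did. They were S100a13, Lgalsl, Anxa4, Anxa6 and Anxa11, with Anxa6 higher by 0.38 ± 0.06 in log2 (adjusted p = 0.000480) and Lgalsl, a galectin-like gene, by 0.34 ± 0.11 (adjusted p = 0.0252). Between large clones and singlets of islet IGRP- cells 6 of 12 were higher and 2 lower, where 21.1% and 19.0% of all genes were. The lower were Lgals8, at -0.53 ± 0.19 in log2, and Lgals9, at -0.43 ± 0.11. In spleen, where 8.34% of all genes were higher and 7.21% lower, 5 of 12 were higher and Lgals9 again lower, at -0.53 ± 0.14. The lists were chosen with earlier results of these data known, so their values by clone size are a description.

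Of 29 genes of the cytoskeleton list, 27 passed the filter. In dividing islet cells 18 rose and 1 fell, against the same 18.1% and 17.0% of all genes. Crip1, a LIM domain protein, rose by 0.79 ± 0.07 (adjusted p = 1.87e-06), Lmnb1, a nuclear lamin, by 0.73 ± 0.10 and Tagln2, an actin-binding protein, by 0.67 ± 0.07. Tmsb10, which sequesters actin monomers, was at -0.26 ± 0.09 (adjusted p = 0.0452). Large clones of islet IGRP- cells had 16 higher and 2 lower than singlets (21.1% and 19.0% of all genes), with Capg, which caps actin filaments, at 2.75 ± 0.14 and Tmsb10 at -1.06 ± 0.10. In spleen 15 were higher and 1 lower (8.34% and 7.21% of all genes), with Capg at 2.40 ± 0.38 and Tmsb10 at -0.73 ± 0.10.

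The list of galectin ligands and the enzymes that build or cap their glycans had 16 genes, of which 11 passed. In large clones 6 were higher and 3 lower than in singlets of islet IGRP- cells (21.1% and 19.0% of all genes). In spleen 6 were higher and 1 lower (8.34% and 7.21% of all genes). In dividing islet cells 1 rose (Havcr2) and 3 fell (Ptprc, Mgat5 and St6gal1), against 18.1% and 17.0% of all genes. Lag3 and Havcr2, receptors of exhausted and activated T cells that bind galectins, were 2.24 ± 0.12 and 3.24 ± 0.25 higher in large clones than in singlets of islet IGRP- cells. In spleen Lag3 was 1.82 ± 0.38 higher and Havcr2, at 0.937 and 1.16 CPM over the whole libraries, did not pass. In dividing cells Lag3 was at -0.0072 ± 0.13 (adjusted p = 0.977). St6gal1, whose product caps galactose with sialic acid and so blocks galectin-1, had 13.8 and 13.2 CPM in islet IGRP- cells. It had 1.19 and 1.13 CPM in islet IGRP+ cells and 12.4 and 8.40 CPM in spleen cells. Between the islet groups it was the 1 gene of the 3 lists to pass (1.19% of all genes did), at -3.56 ± 0.38 in log2. In clones of 10 or more cells 0 genes of the lists passed there, where 0.0193% of all genes did. Large clones also differed from singlets in St6gal1, at -3.29 ± 0.30 in islet IGRP- cells and -4.72 ± 0.45 in spleen. St6gal1 and Anxa4 stayed under the 20 CPM asked of named genes in every library, and Lgals8 in the islet libraries. These 3 were picked after their values were seen, so the calls of St6gal1 are a description and no p-value of it is printed.

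Across the 16 sums of cells by library and clone size class, log2 levels of the 8 detected members other than Ahnak went together, with Pearson's r from 0.69 to 0.99. It was 0.99 for S100a4 with Lgals3 and 0.97 for S100a4 with S100a6, and from 0.26 to 0.70 for Ahnak with these 8. Among 5605 other genes, S100a4 was most like Crmp1 (r = 0.96), S100a6 like Osbpl3 (0.96), S100a10 and S100a11 like Nkg7 (0.96 and 0.98), Lgals1 like Etfb (0.97) and Lgals3 like Prr13 (0.95). Anxa2 was most like Klrc1 (0.97), Vim like AW112010 (0.98) and Ahnak like Lrrfip1 (0.94). These sums share libraries and depth, and the values are a description.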

How the data were processed

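CD8 T cells of 3 groups were profiled by 5′ scRNA-seq and scTCR-seq in 2 rounds of 10 pooled mice. Per the file headers the gene matrices came from Cell Ranger 5.0.1, and per the labels reads were aligned to mm10. The deposited values are raw UMI counts per gene and cell, and UMI and read counts per receptor chain. No value was normalized by the authors, and the authors' filter on mitochondrial UMIs and genes per cell was applied again here. No correction for free RNA was made, and the only guard against doublets was the upper limit on genes.

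The members and all lists were chosen with earlier results of these data known. UMI counts were summed per library, or per library and cell class (classes of at least 20 cells), and fitted with edgeR 4.0.16 (R 4.3.3; TMM, filterByExpr, quasi-likelihood, Benjamini-Hochberg over all genes tested, threshold 0.05), and DESeq2 1.42.0 was an alternative. Group fits used 6 libraries and no block; fits by clone size or cell class had the library as a block. Rounds share mouse pools across groups, and deviations from group means of same-round libraries correlated at 0.707 to 0.764 over 11277 genes, so blocked values are printed where they change a count. SEs are the absolute log2 difference divided by the square root of F. The depth was 5880696 to 40469961 UMIs a library, and shares after thinning to 1000 UMIs carry counting error only. Named genes were all members, up to 5 genes a list and direction with adjusted p under 0.05 and at least 20 CPM, and the 3 genes most like each member on log2(CPM + 1), of which the first is printed. The script was tested on simulated data. A further comparison of cell classes and 1 marker are not reported here.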

Additional observations from a re-analysis of the deposited data

Results flagged for a closer look

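For 5 of the 10 genes the difference between clones of 10 or more cells and singlets was not of the same size in islet IGRP- and spleen IGRP+ cells, with an adjusted p under 0.05 for the interaction in edgeR, where 7.79% of all genes passed. The genes were chosen with their levels by group and clone size known, so the values are a description. Taken as islet IGRP- minus spleen, it was -1.01 for S100a6, -1.25 for Lgals3, -1.58 for Anxa2 and -1.43 for Ahnak on the log2 scale, and 0.83 for Vim. In cells without a Ccr7 or Lef1 UMI, a restriction chosen after seeing the data, Ahnak passed with -1.58 and Anxa2 with -1.18, and S100a6, Lgals3 and Vim did not, while S100a10 did. No group had the 4 libraries that a search for an outlying library needs.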

How the results depend on the processing

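Each count was recomputed under the alternatives. The "other lists" are the family, cytoskeleton and partner lists together. Between islet IGRP+ and islet IGRP- cells, the members called were 0, and 8 with the replicate block, 8 by DESeq2 and 4 with no filter on low counts. The other lists had 1, and 21, 5 and 4 in these settings, 0 in clones of 10 or more and 0 to 1 with a library left out. All genes called were 134, and 3442, 574 and 711, 84 in cells with a productive β chain, 2 in clones of 10 or more and 0 to 30 with a library left out. Against spleen the members called were 6, with 1 in clones of 10 or more and 0 to 2 with a library left out. The other lists had 18, 33 with the block and 6 to 12 with a library left out, and all genes 3004, 6215 and 892 to 2050. For clone size in islet IGRP- cells all genes called were 4391, 2156 without Round 2 of that group and 885 in cells without a Ccr7 or Lef1 UMI, and the other lists had 35 and, in these cells, 17. In spleen the other lists had 29, 6 in cells without a Ccr7 or Lef1 UMI and 17 to 29 with a library left out, and all genes 1701, 181 and 666 to 1832. With DESeq2's size factors the share of higher calls there was 43.3% in place of 53.6%, and 54.6% in place of 40.8% for the interaction. In islet IGRP+ cells the single member call, S100a4, was lost by DESeq2 (0), with large clones from 5 cells (0), in cells without a Ccr7 or Lef1 UMI (0) and with some libraries left out (0 to 1), and the other lists had 0, 2 with no filter and 0 to 6 with a library left out. All genes called there were 22, 88 with no filter, 35 with the chain of most UMIs kept, 6 with large clones from 5 cells, 11 in cells without a Ccr7 or Lef1 UMI and 5 to 116 with a library left out. The interaction had 5 members, 3 in cells without a Ccr7 or Lef1 UMI and 3 to 5 with a library left out (3 without spleen Round 1). The other lists had 5, 8 with no filter, 3 in cells without a Ccr7 or Lef1 UMI and 0 to 7 with a library left out, and all genes 852, 128 in those cells and 234 to 1030. Ahnak turned from 0.51 to -0.17 between large clones and singlets of islet IGRP- cells in cells without a Ccr7 or Lef1 UMI. The cause was not tested. For dividing cells, no replicate block gave 0 members in place of 8, 1 other gene in place of 28 and 450 genes in place of 3781, and thinning gave 13 other genes and 975 genes. Leaving out a library gave 2197 to 3744 genes. The replicate block for rounds applies to the 2 comparisons between groups in all cells, and its counts are those above. With 2 libraries a group, the lone library of a group was taken to vary like the others.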
